A study of Rattus norvegicus with 3 samples.

Results

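Pump genes of the V-ATPase and the P-type ATPases were examined in single neuronal cell bodies. Members were the probe sets that carried exactly 1 gene symbol of these pump families (Atp1, Atp2, Atp4, Atp6v, Atp6ap, Atp7 to Atp13a). They numbered 56 genes, read by 88 probe sets, of 14218 genes and 20832 single-symbol probe sets in all. By what they move, the members fell into 5 sodium pump genes, 9 calcium pump genes, 23 proton pump genes, 11 lipid pump genes and 8 other P-type genes, the last for copper, gastric and colonic proton exchange, and the ATP13A branch. Of the catalytic sodium pump subunits, Atp1a4 alone was among the named probe sets used here, and the others were not analyzed here.

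The series held 3 Affymetrix arrays in 1 group, each with amplified RNA from the soma of 1 neuron, cut free with a glass pipette. The sample titles say only that it was a neuron, and the study calls the neurons it collected pyramidal. Hippocampi of Sprague-Dawley rat embryos at day 19 were the source, and the cells had grown for 14 days in primary culture with no treatment named. The somata are called cell 1, cell 2 and cell 3 after their replicate numbers. The labels name them biological replicates but give no animal and no dish, and there was no control group, so a difference between cells has 1 array on each side and no test.

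Ion pumps use ATP to hold the gradients that a neuron spends when it fires. P-type pumps carry ions or lipids through a single large subunit that is phosphorylated in each cycle: the Na/K-ATPase restores sodium and potassium, SERCA, PMCA and SPCA pumps clear calcium into the endoplasmic reticulum, out of the cell and into the Golgi, and P4 flippases turn phospholipids to the inner leaflet. The V-ATPase is a rotary complex in which the V1 sector splits ATP and the V0 sector carries protons, and it acidifies lysosomes and loads synaptic vesicles with their transmitter. 

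Levels are deposited log2 intensities, and a gene with several probe sets was given their median. A percentile is the rank of a gene among all 14218 genes of its array, with 50 as the median of all genes. A percentile holds probe affinity as well as RNA amount, so it places a reading on its array and says nothing of which transcript was more abundant. A gene counted as above background where it exceeded the 95th percentile of 135 genes taken as silent in neurons. These include olfactory receptors and liver or milk proteins, and their 95th percentile lay at 9.65, 10.10 and 9.41 log2 in cells 1, 2 and 3. By construction, 7 of the 135 exceeded it in each cell, while 14 did so in some cell and 2 in all 3 cells.

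The arrays had medians of 7.23, 7.16 and 7.09 log2. Cell 1 stood apart: the 3′ probe set of Gapdh exceeded the 5′ probe set by 0.20 log2 in cell 1, 3.06 in cell 2 and 2.93 in cell 3. Neuronal markers had median percentiles of 80.3, 84.3 and 82.0 over 15 genes. Of these, 2, 1 and 7 were above background. Pyramidal markers had medians of 55.3, 51.2 and 83.0 over 11 genes, with 2, 2 and 4 above background. Of these, the factor Neurod2 (12.88, 13.40 and 13.35 log2) and neurogranin, Nrgn (10.10, 11.77 and 11.58 log2), were above background in all 3 cells, whereas the vesicular glutamate transporter Slc17a7 stood at percentiles of 55.3, 51.2 and 51.2 and the kinase Camk2a at 26.5, 19.6 and 26.2. Interneuron markers had medians of 57.3, 70.1 and 36.7 over 9 genes with 1 above background in each cell, and calretinin, Calb2, stood at 98.3, 91.0 and 99.1. The GABA-synthesizing enzyme Gad2 stood at 14.1, 0.647 and 7.48, its paralog Gad1 at 58.5, 80.3 and 5.26, and the vesicular GABA transporter Slc32a1 at 27.8, 55.9 and 14.0. Dlx1 stood at 89.4, 92.8 and 42.6. Vip stood at 62.7, 97.0 and 44.8, above background in cell 2 alone. Oligodendrocyte markers had medians of 75.1, 63.6 and 55.1 (10 genes), with 1, 1 and 0 above background (Myrf in cell 1 and Sox10 in cell 2). Astrocyte markers had medians of 29.1, 35.1 and 32.9 (10 genes), with 1, 0 and 0 above background (S100b in cell 1). Microglial markers had medians of 81.1, 46.9 and 24.1 (10 genes). Tyrobp, C1qc, Csf1r and Itgam exceeded background in cell 1, and 0 of the 10 did so in cells 2 and 3, while Aif1 stood at 1.65 in cell 1.

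The pump genes as a whole stood somewhat above the middle of the arrays, with a beta subunit of the sodium pump, a rotor subunit of the V-ATPase and a calcium pump at the top. The median percentile of the 56 members was 61.2, 64.3 and 66.9 in cells 1, 2 and 3, where all genes have 50 by construction. Above background were 7 members in cell 1, 4 in cell 2 and 13 in cell 3, where all genes gave 7.46%, 5.28% and 11.0% and the members 12.5%, 7.14% and 23.2%. Members above background in all 3 cells numbered 3 (Atp1b1, Atp6v1d and Atp2a1), against 2.03% of all genes, and 15 were above it in some cell, against 16.5%. A percentile over 50 in all 3 cells was found for 26 members (46.4%, all genes 26.4%), and one of 50 or under in all 3 cells for 10 (17.9%, all genes 25.0%). 

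**Figure D1:**
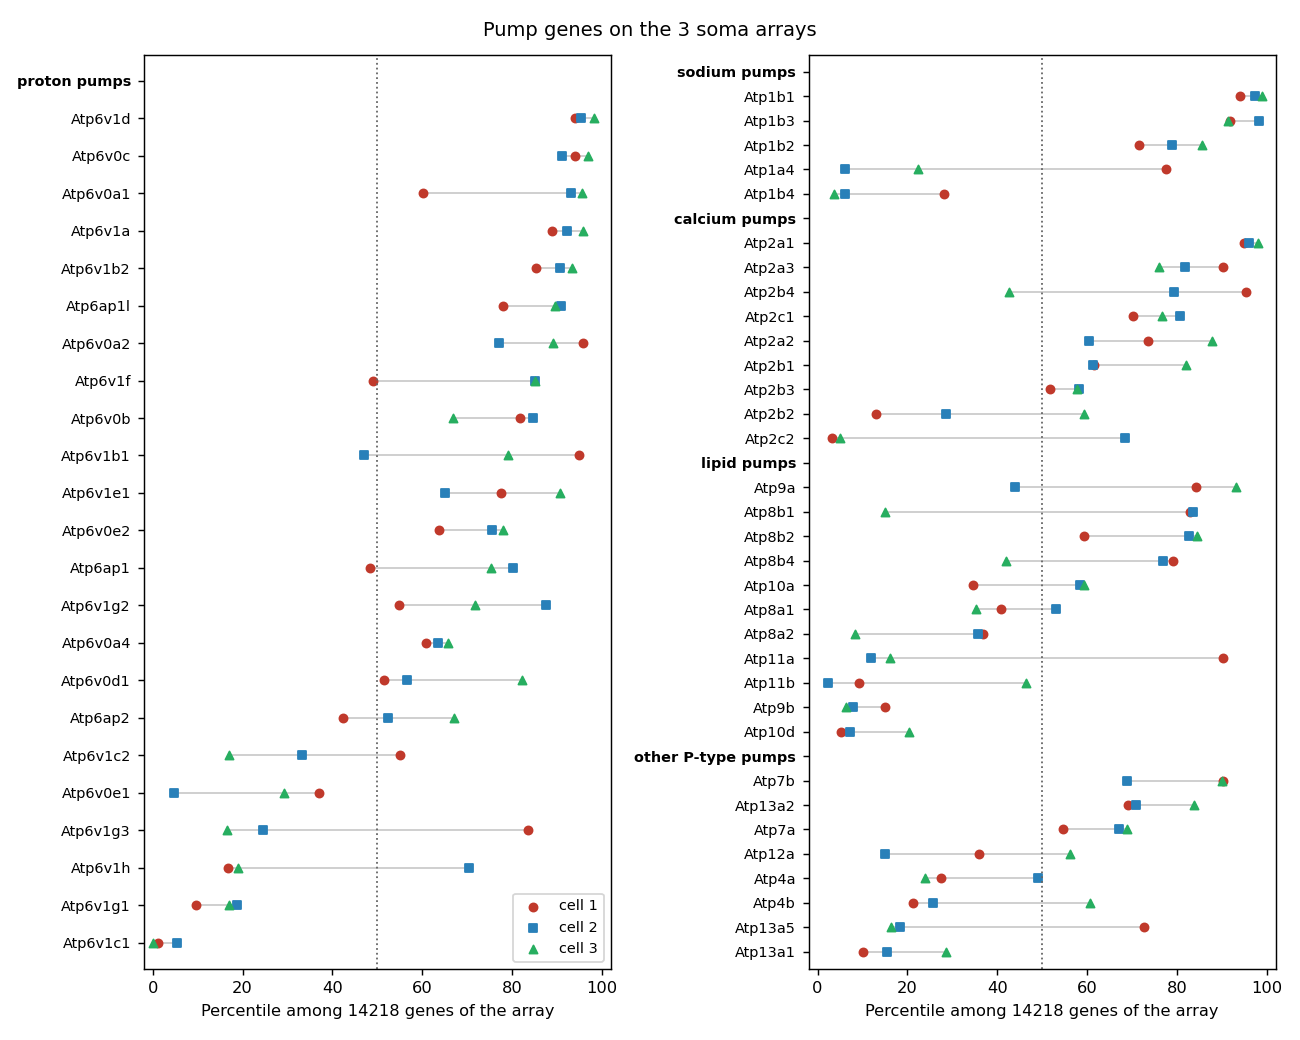
Percentile of each of the 56 pump genes (rows, grouped by what they move) in the 3 somata, with circles for cell 1, squares for cell 2, triangles for cell 3, a grey line from the lowest to the highest cell, and a dotted line at 50, the median of all 14218 genes. Atp1b1, Atp6v1d and Atp2a1 sit above 93 in every cell, while Atp6v1c1, Atp10d and Atp9b sit below 21 in every cell.

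The sodium pump was read mainly through its beta subunits, the glycoproteins that carry the catalytic subunit to the plasma membrane. Atp1b1, the main beta subunit of neurons, read 9.94, 10.81 and 11.72 log2 in cells 1, 2 and 3 (10.82 ± 0.89, mean ± SD, n = 3 cells). It stood in the top decile of every array, at percentiles of 94.2, 97.5 and 99.1. Of its 2 probe sets, the brighter read 11.49, 11.86 and 12.43 log2, above background in each cell, and the dimmer 8.39, 9.75 and 11.01, above it in cell 3 alone. Atp1b3, a beta subunit of many tissues, read 9.53, 11.07 and 9.73 log2, highest in cell 2 and above background in cells 2 and 3. Atp1b2, first described as an adhesion molecule of glia, had a gene value of 8.07, 8.47 and 9.01 log2, below background in each cell. That value is the midpoint of 2 probe sets that lay at opposite ends of the array: the brighter read 11.52, 12.21 and 12.19 log2 and the dimmer 4.62, 4.72 and 5.83.

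The remaining sodium pump members belong to other tissues and read low in cells 2 and 3. Atp1a4, the catalytic subunit of sperm, stood at percentiles of 77.5, 6.07 and 22.5, and Atp1b4, a muscle protein that in placental mammals is no pump subunit, at 28.0, 6.07 and 3.76. The median over all 5 genes was 77.5, 78.9 and 85.5, or 80.7 ± 4.29 (SD, n = 3 cells).

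Calcium pumps stood above the middle of the array as well, with a median of 71.5 ± 3.98 over 9 genes. Above background in some cell were 2 of the 9 (Atp2a1 and Atp2b4), against 16.5% of all genes. SERCA genes, which refill the endoplasmic reticulum, had the highest family median, 86.7 ± 4.34 for 3 genes. Atp2a1, known as the SERCA pump of fast muscle, read 10.11, 10.36 and 11.20 log2 and exceeded background in every cell through a single probe set. Atp2a2, the SERCA pump of neurons and most other cells, read 8.16, 7.62 and 9.26 log2, and stayed below background in each cell. Its 5 probe sets ranged widely, over 61.1 points of median percentile, and the brightest read 11.11, 11.76 and 12.05 log2. Atp2a3, a SERCA gene of blood cells and some neurons, stood at 90.3, 81.9 and 76.0.

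The PMCA genes, which push calcium out through the plasma membrane, did not move as a block. Atp2b4 read 10.23, 8.50 and 6.91 log2, above background in cell 1 and below it in cells 2 and 3. Atp2b1 read 7.67, 7.65 and 8.73 log2, below background, and each of its 3 probe sets read highest in cell 3. Atp2b2, a fast PMCA pump of neurons, read 5.76, 6.42 and 7.54 log2, below background in each cell. Atp2b3, also neuronal, had a median over 3 probe sets of 7.32, 7.53 and 7.48 log2, although its brightest probe set read 8.33, 8.32 and 9.42 log2 and another 6.70, 7.53 and 7.48. Among the Golgi pumps, Atp2c1, which also carries manganese, stood at percentiles of 70.2, 80.7 and 76.6, whereas Atp2c2 of secretory epithelia stood at 3.16, 68.3 and 5.10 and was high in cell 2 alone.

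The V-ATPase genes had a median percentile of 60.9 in cell 1, 75.5 in cell 2 and 78.1 in cell 3 over 23 genes (71.5 ± 9.24). Background was exceeded in some cell by 9 of the 23, against 16.5% of all genes. Their medians kept the order cell 1, cell 2, cell 3, and 14 of the 23 had their lowest normalized level in cell 1, against 43.1% of all genes. Above background were 4, 1 and 8 of the V-ATPase genes in cells 1, 2 and 3, against 7.46%, 5.28% and 11.0% of all genes. 

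In the V1 sector, the subunits that split ATP and the rotor stood high. Atp6v1d, the rotor subunit that turns inside the catalytic ring, read 9.89, 10.22 and 11.26 log2 and was above background in every cell. Atp6v1a, the catalytic subunit, read 9.17, 9.67 and 10.64 log2 and Atp6v1b2, its partner in the ring in brain, 8.87, 9.47 and 10.10. As gene values both exceeded background in cell 3 alone. Each probe set of Atp6v1a was highest in cell 3, but those of Atp6v1b2 did not share an order: the brighter read 10.35, 9.93 and 12.73 log2 and the dimmer 7.38, 9.01 and 7.47. The stalk subunits Atp6v1e1 (77.5, 65.1 and 90.6) and Atp6v1g2, the neuronal G isoform (54.8, 87.6 and 71.7), stood above the middle of each array, and Atp6v1f, at the tip of the rotor, did so in cells 2 and 3 (48.9, 85.2 and 85.1).

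Other subunits of the same sector read low in some or all cells. Atp6v1c1, which locks V1 onto V0, read 4.51, 5.05 and 3.87 log2, at percentiles of 1.09, 5.48 and 0.0914, the lowest median of all members. Atp6v1g1, the G isoform of most tissues, stood at 9.56, 18.8 and 17.0, and Atp6v1h, a regulatory subunit, at 16.7, 70.5 and 18.9. Each of these 3 genes was read by a single probe set, so no second probe set tells a low transcript from a poor probe. 

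In the V0 sector, which holds the proton path, Atp6v0c, the subunit of the proton-carrying ring, read 9.89, 9.51 and 10.86 log2 (10.09 ± 0.69) and was above background in cells 1 and 3. RefSeq lists pseudogene copies of Atp6v0c, Atp6v1a, Atp6v1e1, Atp6v1g1 and the sodium pump gene Atp1b3, and whether these probe sets also bind such copies was not tested. Atp6v0a1, the a subunit of neurons that sends the pump to synaptic vesicles, read 7.62, 9.82 and 10.54 log2, above background in cell 3 alone. Atp6v0a2, the a subunit of Golgi and endosomes, read 10.29, 8.37 and 9.41 log2, with cell 1 highest. Its brighter probe set read 10.11, 9.59 and 10.09 log2 and the other 10.47, 7.15 and 8.73, so the gap came mainly from the latter. Among the smaller subunits, Atp6v0b stood at 81.8, 84.8 and 66.8, Atp6v0e2, the brain e isoform, at 63.7, 75.5 and 78.1, and Atp6v0d1 at 51.6, 56.5 and 82.3. Atp6v0e1, the general e isoform, stood at 37.0, 4.66 and 29.3.

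The sectors were compared by their medians. The V1 median was 69.8 ± 4.89 (12 genes) and the V0 median 72.9 ± 9.39 (8 genes). V1 was higher in cell 1 and lower in cells 2 and 3 (difference -3.12 ± 6.38, p = 0.5 by the exact sign-flip permutation test over 3 cells, two-sided), a test that cannot pass 0.05 with 3 cells, since 0.25 is its smallest p. Of the accessory proteins, Atp6ap1 stood at 48.3, 80.2 and 75.3 and its relative Atp6ap1l at 78.0, 90.8 and 89.6, both lowest in cell 1. Atp6ap2, the prorenin receptor, stood at 42.3, 52.5 and 67.0 as the midpoint of 2 probe sets with median percentiles of 9.70 and 87.2.

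Promoters were read because V-ATPase genes are known to share an element that the lysosomal factor TFEB binds, with CACGTG at its core. RefSeq promoter windows of build GRCr8, from 250 bases before to 50 bases after the gene start, were matched for 48 of the 56 members. CACGTG, which reads the same on both strands, occurred in 2 of 19 V-ATPase windows, in 0 of 29 windows of other pumps and in 6.65% of all 27457 windows. The windows of 30 bases around the core, which is in capitals, lay at chr19:50357283-50357312 and chr10:17007115-17007144, on the minus strand in each case, with the core starting 52 bases before the gene start of Atp6v0d1 and 24 bases after that of Atp6v0e1.
Atp6v0d1: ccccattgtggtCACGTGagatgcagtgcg
Atp6v0e1: tcgcgcgccggtCACGTGagcctctgttga
Both genes were below background in every cell. Windows were also matched for Atp6v1d, Atp6v0c and Atp6v0a1, and these letters are not in them. Any relation of the motif to the readings was not tested.

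Lipid pumps stood below the middle of the array, with a median of 40.0 ± 4.33 over 11 genes and values of 40.8, 43.9 and 35.4 in cells 1, 2 and 3. Atp9a, of endosomes and the trans-Golgi network, led the group, at 8.78, 7.01 and 10.02 log2 with cell 3 highest. By gene value it was the only lipid pump above background in any cell. Atp8b2 stood at percentiles of 59.3, 82.6 and 84.5 and was the only lipid pump over 50 in all 3 cells, with its 4 probe sets between median percentiles of 70.4 and 86.7. As gene values, the phosphatidylserine flippases of neurons did not read high: Atp8a1 stood at 40.8, 53.2 and 35.4 and Atp8a2 at 36.8, 35.8 and 8.41. For Atp8a1, however, 1 of its 3 probe sets read 7.79, 7.41 and 10.25 log2, above background in cell 3, while the others stayed below it in each cell. At the lower end, Atp9b (15.0, 7.79 and 6.44), Atp10d (5.15, 7.27 and 20.3) and Atp11b (9.21, 2.33 and 46.3) stayed under 50 in every cell.

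Several lipid pumps read high in some somata and low in others. The flippase Atp8b1, known from bile canaliculi, stood at 82.9, 83.7 and 14.9. Its difference came from 1 of its 2 probe sets, which read 11.84, 11.62 and 4.98 log2, above background in cells 1 and 2 and far below it in cell 3, while the other read 5.53, 5.97 and 6.38. Atp11a, a flippase of the plasma membrane, stood at 90.2, 11.9 and 16.1, and both of its probe sets were highest in cell 1, at 10.40, 4.32 and 4.86 log2 and at 8.25, 6.85 and 6.63. Atp8b4, with 79.3, 76.8 and 42.0, was lowest in cell 3 like Atp8b1.

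Of the other P-type pumps, the copper pumps read higher than the acid pumps of the gut. Atp7b stood at 90.2, 69.0 and 90.1 and Atp7a at 54.6, 67.1 and 69.0, each over 50 in every cell. By gene value, however, Atp7b was above background in cell 3 alone and Atp7a in no cell. Atp13a2, a lysosomal polyamine exporter, stood at 69.2, 70.9 and 83.9, and Atp13a1, of the endoplasmic reticulum, at 10.1, 15.5 and 28.7. The gastric subunits Atp4a (27.5, 49.0 and 23.9) and Atp4b (21.3, 25.7 and 60.7) and the colonic Atp12a (35.8, 15.0 and 56.2) were below background in each cell.

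The 4 main groups were then compared within each cell. Sodium pumps had the highest median and lipid pumps the lowest in all 3 cells. The sodium median exceeded the lipid median by 36.7, 35.0 and 50.2 percentile points (40.6 ± 8.33), the proton median by 20.1, 31.6 and 42.7 (31.5 ± 11.3) and the calcium median by 29.3, 24.4 and 40.6 (31.5 ± 8.29). Sodium exceeded calcium by 7.36, 10.5 and 9.57 points (9.16 ± 1.62), and proton lay under sodium by a mean of 9.16 ± 6.75. These 5 differences had the same direction in 3 of 3 cells, and each had p = 0.25 by the exact sign-flip permutation test over cells, two-sided, which is the smallest value that 3 cells allow (0.4 after Benjamini-Hochberg adjustment over 8 comparisons). Proton and calcium pumps could not be ordered, at -9.23, 7.12 and 2.10 points (p = 1, the same exact test). With the brightest probe set in place of the median, the proton minus lipid difference was 19.4 ± 26.5 and no longer had the same direction in all cells (p = 0.5, the same exact test). The sodium group holds 5 genes and lacks most catalytic subunits. Its median was the value of Atp1a4 in cell 1 (77.5) and of Atp1b2 in cells 2 and 3 (78.9 and 85.5). The Atp1b2 value is the midpoint of 2 probe sets with median percentiles of 99.2 and 3.98. The groups were read by different probe sets, and a percentile holds probe affinity as well as RNA amount. The same direction in all 3 cells therefore does not order the groups by RNA amount.

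**Figure D2:**
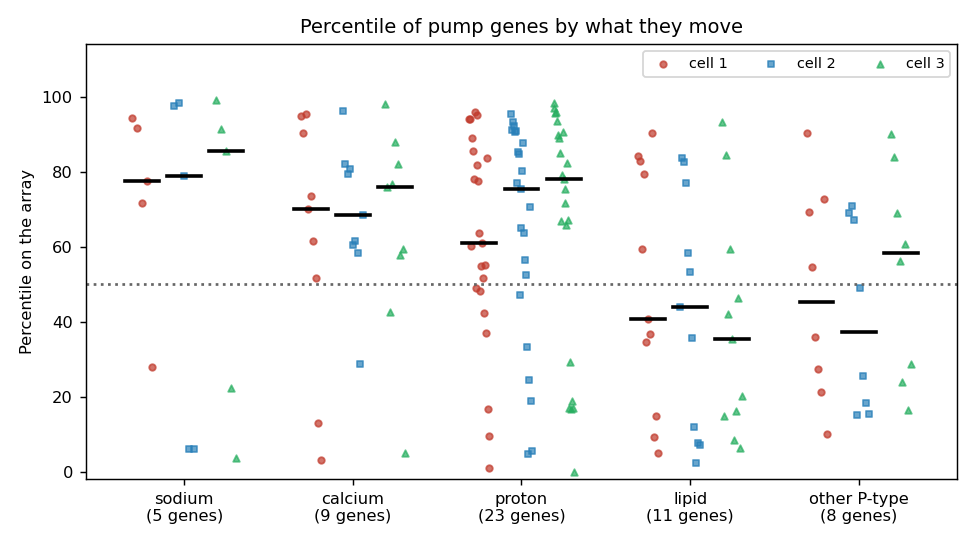
Percentile of each pump gene by group (horizontal axis) in the 3 cells (circles for cell 1, squares for cell 2, triangles for cell 3), with a black bar at the median of each group and cell and a dotted line at 50. Lipid pumps have medians from 35.4 to 43.9, while the medians of sodium pumps lie from 77.5 to 85.5.

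Many pump families hold isoforms for the brain or for most cells beside isoforms of other organs, and these were compared. The lists were chosen with earlier results of these data known, so they are not an independent reference. Of the members, 34 are known from brain or most cells and 13 chiefly from other organs or cell types, such as stomach, kidney, muscle, testis and liver. In cell 3 the former had a median percentile of 76.0 and the latter 22.5, and in cell 2 the medians were 68.8 and 33.2. In cell 1 the order was lost, with 57.6 for the brain or general genes and 60.9 for those of other organs. The difference was 53.5 and 35.6 points in cells 3 and 2 and -3.38 in cell 1 (28.6 ± 29.1, p = 0.5 by the exact sign-flip permutation test, two-sided, 0.571 adjusted over 8 comparisons). Without cell 1 it was 44.5, the mean of the other 2 cells. The remaining 9 members, Atp7b and Atp2a3 among them, were in neither list and were left out of this comparison. Their medians were 78.0, 76.8 and 76.0 in cells 1, 2 and 3.

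Isoforms of the V-ATPase were set side by side. The kidney B subunit Atp6v1b1 read 10.13, 7.13 and 8.53 log2, above background in cell 1 alone, and the brain isoform Atp6v1b2 was above it in cell 3 alone. The kidney G subunit Atp6v1g3 read 8.73, 6.24 and 5.75 log2 and the neuronal Atp6v1g2 7.42, 9.12 and 8.09, all of them below background. The C isoform Atp6v1c2 also had its highest level in cell 1, at percentiles of 55.0, 33.2 and 17.0. The kidney a subunit Atp6v0a4 read 7.64, 7.75 and 7.81 log2, the smallest spread of all members (SD 0.13 after normalization). In all, 6 of the 13 genes of other organs and 4 of the 34 brain or general genes had their highest level in cell 1, against 31.6% of all genes. Lowest there were 4 of the 13 and 21 of the 34, against 43.1% of all genes. The small excess of the 3′ over the 5′ Gapdh probe set and the high microglial markers belonged to the same cell, and their part in this difference was not tested.

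**Figure D3:**
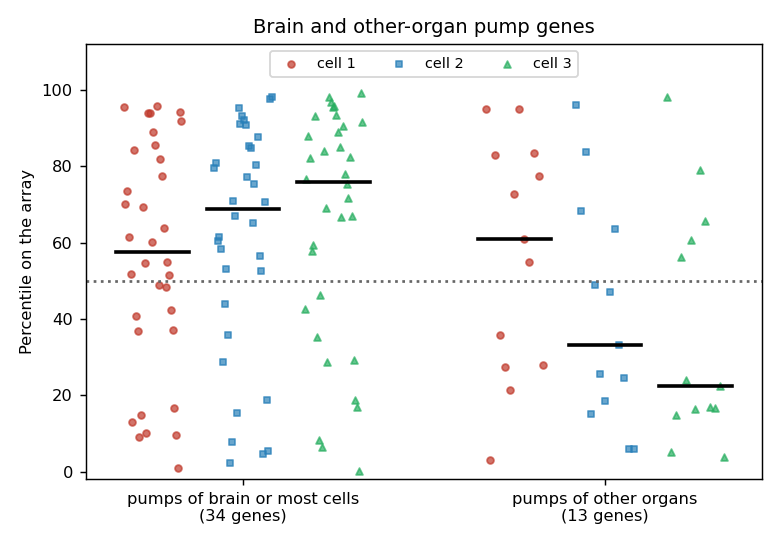
Percentile of 34 pump genes known from brain or most cells (left) and 13 known chiefly from other organs or cell types (right) in the 3 cells (circles for cell 1, squares for cell 2, triangles for cell 3), with black bars at the medians. The medians are 57.6 and 60.9 in cell 1, 68.8 and 33.2 in cell 2, and 76.0 and 22.5 in cell 3.

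Taken over all 3 cells, the median spread of the members was close to that of all genes, while single pairs of cells departed from it in both directions. The median SD of the normalized log2 level over the cells was 0.763 for the members and 0.771 for all genes. A difference of 2-fold or more in either direction was seen for 20 members between cells 1 and 2 (all genes 46.6%), for 32 between cells 1 and 3 (all genes 50.4%) and for 22 between cells 2 and 3 (all genes 36.3%), which is 35.7%, 57.1% and 39.3% of the members. Most of these readings lay below background, so the counts describe readings and not measured RNA levels. By direction, 11 members were higher in cell 1 than in cell 2 (all genes 21.8%) and 9 lower (24.9%), 13 were higher in cell 1 than in cell 3 (21.9%) and 19 lower (28.5%), and 8 were higher in cell 2 than in cell 3 (17.0%) and 14 lower (19.4%). Of the 19 that were lower in cell 1 than in cell 3, 9 were V-ATPase genes, among them Atp6v0a1, Atp6v1a, Atp6v1b2 and Atp6v1d. Pearson's r across the 56 members was 0.616, 0.644 and 0.762 for cells 1 and 2, 1 and 3, and 2 and 3, and 0.473, 0.437 and 0.676 across all genes. These values describe genes that share arrays and are not replicates. 

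**Figure D4:**
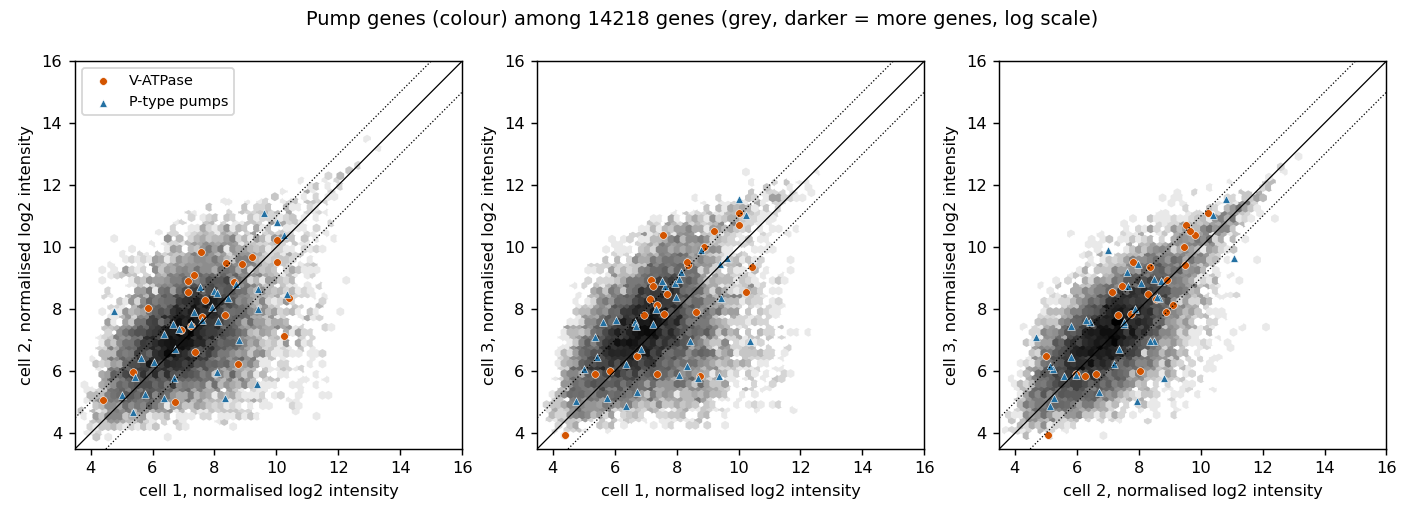
Quantile-normalized log2 intensities of the somata plotted in pairs, with 1 cell on each axis, V-ATPase genes as orange circles, P-type pumps as blue triangles and all genes in grey on a log scale of density. The solid line marks equal levels and the dotted lines a 2-fold difference, and 20, 32 and 22 pump genes lie on or outside them.

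Single cells stood out for some members. Cell 1 was 2-fold or more above both other cells for 8 members (Atp11a, Atp13a5, Atp1a4, Atp1b4, Atp2b4, Atp6v0a2, Atp6v1b1 and Atp6v1g3; all genes 14.5%) and as far below both for 5 (Atp6ap1, Atp6ap1l, Atp6v0a1, Atp6v1f and Atp8b2; all genes 14.7%). Cell 2 was above both others for 3 (Atp1b3, Atp2c2 and Atp6v1h; all genes 8.39%) and below both for 5 (Atp1a4, Atp6v0e1, Atp6v1b1, Atp7b and Atp9a; all genes 6.39%). Cell 3 was above both for 8, among them the calcium pumps Atp2a2, Atp2b1 and Atp2b2 (all genes 10.9%), and below both for 4 (Atp2b4, Atp8a2, Atp8b1 and Atp8b4; all genes 7.60%). The shares of members in cell 1 were thus 14.3% and 8.93%, near or under those of all genes. For Atp6v0a2 and Atp6v1g3, only 1 of 2 probe sets was 2-fold or more higher in cell 1 than in both other cells. In cell 3, not every probe set of Atp2a2, Atp2b1 and Atp2b2 was 2-fold or more above both other cells. Nor was every probe set as far below both others for Atp8b2 in cell 1 and for Atp8b1 in cell 3.

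Where a gene had several probe sets, its place depended on which was read. Of the 56 members, 22 had 2 or more probe sets, and their median percentiles differed by a median of 28.7 points, against 33.4 over 4526 genes. A gap of over 50 points was found for 5 of the 22 (Atp1b2, Atp6ap2, Atp8b1, Atp2c1 and Atp2a2), or 22.7%, against 28.7% of those genes. Atp1b2 had the widest gap, at 95.3 points. Probe sets of Atp2b2, Atp6v0b, Atp7b and Atp1b1 lay within 8.45 points of each other. 

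**Figure D5:**
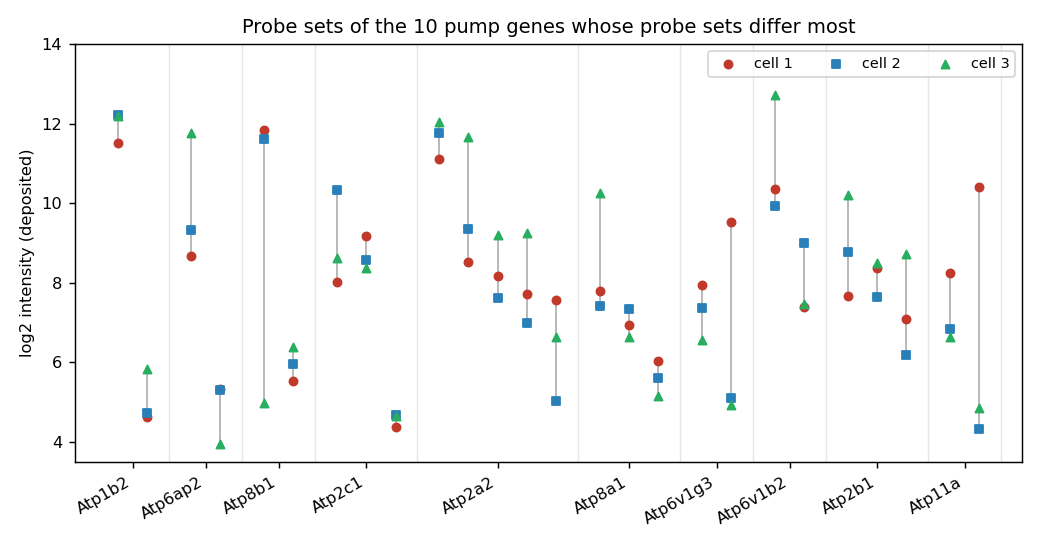
Deposited log2 intensity of each probe set (1 column of points each) of the 10 pump genes whose probe sets differ most, in the 3 cells (circles for cell 1, squares for cell 2, triangles for cell 3). The 2 probe sets of Atp1b2 lie between 11.52 and 12.21 and between 4.62 and 5.83 in the 3 cells, and 1 probe set of Atp8b1 reads 11.84 and 11.62 in cells 1 and 2 and 4.98 in cell 3.

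Partner proteins of the pumps gave a mixed reading. Of 45 partner genes measured, 1 was above background in all 3 cells (all genes 2.03%): Nptn, neuroplastin, a binding partner of PMCA pumps, which read 10.39, 11.30 and 13.12 log2. Calm2, a calmodulin gene whose product activates PMCA pumps, stood at 95.3, 93.3 and 97.7, and the SERCA inhibitor phospholamban, Pln, at 34.6, 11.0 and 36.0. Genes listed for assembly or regulation of the V-ATPase had median percentiles of 73.0, 60.3 and 70.9 over 13 genes, with 2, 0 and 3 above background. They were led by Tmem9 (93.6, 46.3 and 89.7) and by Dmxl2, rabconnectin-3 of synaptic vesicles (89.7, 80.1 and 93.6). This list also holds Tcirg1 (41.5, 60.1 and 87.7), a V0 subunit gene whose symbol lies outside the member families. The FXYD and NKAIN regulators of the sodium pump stood lower, at 40.8, 45.1 and 44.3 over 11 genes, with 2, 1 and 0 above background. Of these, the neuronal Fxyd6 stood at 22.6, 85.4 and 84.6 and Fxyd5 at 95.8, 84.2 and 36.7. Fxyd1, phospholemman, chosen after its values were seen, stood at 6.20, 99.6 and 44.3.

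Calcium exchangers, which work beside the pumps, lay at 52.7, 46.7 and 56.7 over 8 genes, led by Slc24a3 (84.9, 69.8 and 65.9) and Slc24a4 (69.7, 62.6 and 68.3). Copper chaperones and carriers lay at 40.9, 44.6 and 44.5 over 5 genes, with Cox17 at 71.3, 62.8 and 87.6 and Slc31a1 at 75.3, 56.1 and 44.5. The flippase beta subunits Tmem30b (80.8, 88.3 and 45.8) and Tmem30a (38.5, 86.9 and 16.4), without which most P4 flippases stay in the endoplasmic reticulum, were both highest in cell 2 and below background in each cell.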

How the data were processed

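The authors deposited 1 log2 intensity per probe set for each of 3 soma arrays, and per the labels RMA 2.0 was the tool. The study's methods name an upper-decile summary of probes, then median centering and scaling by a percentile range, and the deposited values show neither centering nor scaling. Genome build and the number of arrays processed together are not given in the sources used here. Symbols came from the platform annotation, and the gene numbers of all 56 members were found in the RefSeq table of GRCr8 with 0 symbols changed. Of 31099 probe sets, 436 with several symbols, 1 of them shared with Atp6v0a2, were left out. Silent genes were 28 receptor genes and 107 genes of other organs. Cells were compared after quantile normalization over all probe sets. Group medians were compared by an exact sign-flip permutation test over cells, two-sided. With 3 arrays the number of arrays limits the precision. Scripts were tested on simulated data (Python 3.11.15, pandas 2.3.3, numpy 2.4.6). The members and lists were chosen with earlier results of these data known. Named were members above background in every cell, the highest and lowest of each group, those with the widest range between cells or probe sets, and members of special role. Alternatives changed the summary per gene, the probe sets kept, the background, the fold, the normalization and the cells used.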

Additional observations from a re-analysis of the deposited data

How the results depend on the processing

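The sign of the mean difference held under each alternative that gave a value for sodium, calcium and proton against lipid pumps, for sodium against calcium and proton pumps, for V1 against V0 and for brain or general against other-organ members. With the brightest probe set per gene, proton minus lipid was 19.4 ± 26.5 (exact sign-flip permutation p = 0.5, no longer the same direction in 3 of 3 cells), proton minus sodium was -23.0 and sodium minus calcium 16.9; means gave 13.9 and probe sets ranked singly 14.2 for the last. Without cell 1, proton minus sodium was -5.44. V1 minus V0 was -7.59 with the brightest probe set and -0.434 without cell 2. The proton minus calcium difference (-0.00352 points) changed direction with means of probe sets (4.56), without ambiguous probe sets (1.24), with probe sets ranked one by one (1.69) and among the cells left out in turn (-3.56 to 4.61, positive without cell 1). The sodium median was 89.5 where the brightest probe set stood for a gene and 85.2 with probe sets ranked singly, the lipid median 47.2 and 44.6, and the calcium median 66.9 with means. Members above background in all cells numbered 5 with the brightest probe set (all genes 3.64%) and 6 of 88 probe sets (2.68%). They numbered 5 and 0 with the 90th and 99th percentile of silent genes (3.37% and 0.563%). With a cell left out, they numbered 4, 5 and 3 without cells 1, 2 and 3. Leaving out cell 2 added Atp6v0c and Atp6v0a2. The share of all genes was then 3.95%, 2.996% and 2.36%, also above the 2.03% of the main setting, since fewer cells had to pass. At 4-fold, 12.5% of members and 16.2% of all genes differed between cells (2-fold 44.0% and 44.5%). Among 668 genes whose mean passed background, the proton median was 33.3 over 3 genes, and the other groups kept too few members. Leaving out each cell gave 16.1 to 44.5 points for brain or general minus other-organ members. The cause of these changes was not tested. No paired analysis was possible because there was 1 group. The array count limits every value.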
